A study of Mus musculus with 4 samples.

Results

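The TIR adaptors and the IRAK kinases form the first relay inside the cell when a Toll-like receptor binds its ligand, and the mRNAs of 8 such genes were followed through a block of transcription in RAW264.7 cells, a mouse macrophage line. They were taken by name and are the TIR adaptor genes Myd88, Tirap, Ticam1 and Ticam2 and the interleukin-1 receptor-associated kinase genes Irak1, Irak2, Irak3 and Irak4. They are 8 of the 41324 genes in the deposited table, and all 8 passed the abundance filter that left 10837 genes for testing. The cells carried no genetic change named in the labels and were either untreated or kept in 10 µg/ml actinomycin D, which binds DNA and stops RNA synthesis, for 2, 4 or 6 h. Cytoplasmic RNA, as the labels name it, was depleted of ribosomal RNA and sequenced with a kit that keeps the strand, with 1 library at each time and 4 in all. The stated aim was to obtain half-lives of mRNAs over the transcriptome.

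Toll-like receptors signal through adaptors that share their TIR domain. Myd88 serves all but one of these receptors and the interleukin-1 receptor family, and Tirap brings it to some of them at the membrane. Ticam1, also called TRIF, carries the other arm, which leads to interferon genes, and Ticam2, also called TRAM, links it to Tlr4. Irak4 is recruited by Myd88 and activates Irak1 and Irak2, which pass the signal to the ubiquitin ligase Traf6, while Irak3, also called IRAK-M, lacks kinase activity and is known as a brake in macrophages.

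Total counts ranged from 12762100 at 6 h to 70289647 at 4 h, and counting error was largest at 6 h. Over the tested genes, totals with and without rRNA-like clone genes and mitochondrial rRNAs were 35626716 and 25465336 in the untreated library. They were 38206945 and 36324241 at 2 h, 70198370 and 65736974 at 4 h, and 12745847 and 10855969 at 6 h. The rRNA-like share was largest in the untreated library. Scaling by total counts, as in the marker sums below, therefore raises treated levels against untreated. With 1 library at each time, no single time had a replicate check, and separate cultures are not named in the labels. In such bulk RNA, fewer cells and less RNA per cell cannot be told apart. Tests over the course measured the spread of the 4 libraries around a line or a curve. In edgeR each gene's spread is drawn toward a trend shared by all genes, so its p-values rest partly on that trend. Intervals on counts covered counting error only. Of 9 macrophage markers 8 passed a mean of 1 CPM and Mrc1 did not (their summed level was 3382 to 5035 CPM, the counts scaled to a common library total), and the 4 epithelial markers were at 0 in all 4 libraries. Of the 5 T cell and the 5 B cell markers 1 each passed a mean of 1 CPM, with summed levels of 1.02 to 1.68 and 1.18 to 2.12 CPM.

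The mRNAs of the 8 genes separated widely after shut-off. At 6 h the library held 16.0% of the untreated level of Ticam1, 29.5% of Ticam2 and 35.9% of Irak2, against 106% for Irak4, 118% for Myd88 and 143% for Irak1. Tirap and Irak3 lay between, at 66.2% and 75.5%. These percentages use TMM factors, under which most genes are taken as level, so a value above 100% can stand for a loss smaller than the typical one, for no loss or for a gain, and these cannot be told apart. The deposited normalized values, which divide each library by 1 number, shift the median gene at 6 h by −0.52 log2 against TMM. On that scale Irak1 stood at 100.0% at 6 h (exact binomial 95% interval 93.9 to 107%), Myd88 at 82.4% (77.4 to 87.7%) and Irak4 at 74.1% (65.3 to 83.9%).

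**Figure D1:**
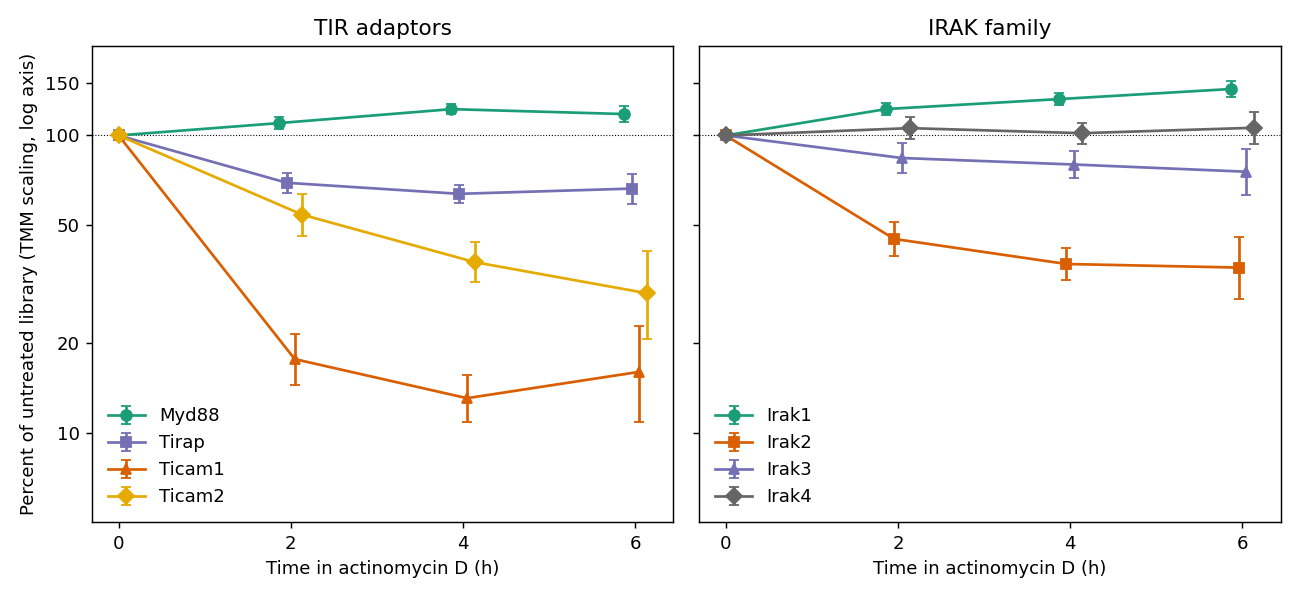
Level of each mRNA as a percent of the untreated library (log axis, TMM scaling) against time in actinomycin D in h, adaptors on the left and IRAKs on the right. Points are single libraries and bars are exact binomial 95% intervals for counting error. Ticam1 stood at 17.7% by 2 h, and Irak1 was above 100% at each treated time.

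Shut-off makes sequences in the 3' untranslated region of interest, since AU-rich elements and Pumilio sites there are known to speed the decay of many mRNAs. The letters ATTTA, its longer form TATTTAT, and the Pumilio motif TGTANATA were searched on the sense strand of 1 annotated transcript per gene (GENCODE vM21, mm10 build). ATTTA counts include those inside TATTTAT. The sites below were chosen with the courses in view, and a link between motif and loss was not tested. They are the TATTTAT pair of Irak2, which fell early, and the single TGTANATA match of Ticam1, which fell most. Also shown are the single ATTTA of Irak1 and of Myd88, which lost least, and the TGTANATA match of Irak4. Each is written 5' to 3' as transcript letters with T for U, and capitals mark the motif.
Irak2, first TATTTAT (chr6:113694397-113694421, plus strand): ttgtgcccaTATTTATtttaatgga
Irak2, second TATTTAT (chr6:113694431-113694455, plus strand): gttgtgtgtTATTTATagctaggtg
Ticam1, TGTANATA (chr17:56269325-56269350, minus strand): cggaaattaTGTAAATAtactcatcc
Irak4, TGTANATA (chr15:94567597-94567622, plus strand): tcatgctccTGTAAATAgctcctcac
Irak1, ATTTA (chrX:74014451-74014473, minus strand): gaatgttacATTTAaaaaaaaaa
Myd88, ATTTA (chr9:119335957-119335979, minus strand): tgtgtgtgaATTTAtaataaaaa

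Irak2 held 4 ATTTA matches in 1246 bases of 3' untranslated region, 2 of them inside TATTTAT, and was the 1 member with TATTTAT. Of 669 tested genes whose region was within 10% of that length, 30.5% held TATTTAT and 7.77% held it at least 2 times. Ticam1, the member that fell most, had no ATTTA in its 576 bases, whereas 53.0% of 536 genes with a region of similar length had one. Its TGTANATA was shared with Irak4, which stood at 106% at 6 h with TMM, and 13.8% and 28.1% of genes with regions of similar length to Ticam1 and Irak4 held that motif. Tirap had 3 ATTTA in 3360 bases and Ticam2 had 2 in 3029 bases, where 97.9% and 97.0% of genes with regions of similar length had at least 1. Irak1, Irak3, Irak4 and Myd88 had 1 each. The longest regions belonged to Tirap and Ticam2 and the shortest to Ticam1. The 2 members with the lowest levels at 6 h, Ticam1 and Ticam2, had regions of 576 and 3029 bases. A link between loss and motifs or region length was not tested. A match describes these letters only, and the region was that of the annotated transcript, not one measured in these cells.

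Among the adaptors, Ticam1 lost most of its mRNA within 2 h. The gene spans 56269319 to 56276786 of chromosome 17 (mm10, minus strand). TMM-scaled CPM were 16.3 in the untreated library, 2.89 at 2 h, 2.14 at 4 h and 2.62 at 6 h, from 497, 125, 162 and 32 counts. The untreated library stood apart and the 3 treated libraries lay close together. As a share of untreated, Ticam1 stood at 17.7% at 2 h (exact binomial 95% interval 14.4 to 21.6%), 13.1% at 4 h (10.9 to 15.6%) and 16.0% at 6 h (10.8 to 22.9%). The intervals at 4 and 6 h overlapped, so a return at 6 h was not detectable at this depth. The course was not a straight line. The slope was −0.49 ± 0.14 log2 per h, where the SE was derived from the F statistic of the test. That slope missed the threshold of 0.05 (edgeR quasi-likelihood test, adjusted p = 0.0675). The upward bend passed it (edgeR adjusted p = 0.000995). Line and curve tested jointly also passed, with a p-value that moved widely with the filter (edgeR adjusted p = 2.02e-06, and 7.42e-71 without the abundance filter). Leaving out the 2 h library brought the slope past the threshold (adjusted p = 0.0202), as did leaving out the 6 h library (0.0294), and without the untreated library it was −0.07 (0.609). With DESeq2 the slope passed (adjusted p = 0.021).

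Ticam2 fell more evenly. Its scaled CPM were 11.1, 6.01, 4.17 and 3.27 at 0, 2, 4 and 6 h, from 338, 260, 316 and 40 counts, lower at each later time. It stood at 54.1% of untreated at 2 h (exact binomial 95% interval 45.8 to 63.8%), 37.5% at 4 h (32.1 to 43.8%) and 29.5% at 6 h (20.7 to 41.0%). The slope of −0.30 ± 0.04 log2 per h passed (edgeR, adjusted p = 0.0225), and the bend did not (adjusted p = 0.192). Ticam2 was the 1 member that fell on the straight line, and 16.8% of all tested genes fell. Without the 4 h library its slope was −0.29 and missed the test (adjusted p = 0.0801). Ticam2 shares 838 exon bases, 14.5% of its exon length, with its neighbour Tmed7 on the same strand and the rule for counting reads in shared bases is not known here, so its counts are uncertain. Tmed7, which encodes a trafficking protein of the secretory pathway, moved the other way, to 138% of untreated at 6 h (slope 0.08, adjusted p = 0.0312), and its part in the Ticam2 counts was not tested. On the opposite strand, the gene with the largest overlap covers 11.3% of the exon bases of Myd88, 9.05% of Tirap, 7.87% of Irak4, 5.22% of Irak3 and 4.44% of Irak2. The kit keeps the strand, but the strand setting used in counting was not among the sources, so those counts carry the same doubt.

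With TMM, Tirap dropped early and then stayed level. It spans 35184551 to 35200291 of chromosome 9 (minus strand). Scaled CPM were 44.7, 31.0, 28.5 and 29.6 at 0, 2, 4 and 6 h, so the untreated library was highest and the treated ones lay together. The levels were 69.3% of untreated at 2 h (exact binomial 95% interval 64.2 to 74.8%), 63.6% at 4 h (59.4 to 68.1%) and 66.2% at 6 h (58.8 to 74.4%). The upward bend passed (edgeR adjusted p = 0.00793) and the slope of −0.10 ± 0.03 log2 per h did not (adjusted p = 0.0949, and 0.0415 without the 6 h library). With DESeq2 the bend missed the threshold (adjusted p = 0.121), and with total counts, where the levels were 91.9%, 80.5% and 74.4%, the bend and the joint test both missed it (edgeR adjusted p = 0.985 and 0.0695).

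Myd88, the adaptor with the highest level per length, was higher in the treated libraries with TMM. It spans 119335934 to 119341411 of chromosome 9 (minus strand). Its scaled CPM were 103, 113, 126 and 122 at 0, 2, 4 and 6 h, with the untreated library lowest. The slope of 0.04 ± 0.02 log2 per h missed the test (edgeR adjusted p = 0.106, and 0.042 without the 6 h library), and the joint test of line and curve placed Myd88 higher (adjusted p = 0.00303, and 0.0518 with DESeq2). With the deposited divisors the slope was −0.04 and passed as a fall (adjusted p = 0.0395). The direction for Myd88 therefore turned with the scaling of the libraries.

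In the untreated library the levels were 40.0 scaled CPM per kb for Myd88, 9.07 for Tirap, 5.46 for Ticam1 and 1.92 for Ticam2. Ticam1 and Ticam2 stood at 0.966 and 1.04 CPM per kb at 2 h, at 0.714 and 0.719 at 4 h, and at 0.876 and 0.565 at 6 h. Per length, Ticam2 was 0.351 times Ticam1 before treatment (exact binomial 95% interval 0.305 to 0.404). At 2, 4 and 6 h the intervals of that ratio included 1, so with these lengths the order after shut-off was not resolved. In raw counts Ticam2 was 2.08 times Ticam1 at 2 h (1.67 to 2.60), 1.95 times at 4 h (1.61 to 2.37) and 1.25 times at 6 h (0.766 to 2.06). The order of these adaptors after shut-off therefore depends on the length used. Myd88 made up 70.8% of the summed adaptor level per length before treatment and 87.2% at 4 h, while Ticam1 went from 9.68% to 1.27%. Exon lengths were those of all annotated exons of a gene merged, from GENCODE vM21 (5792 bases for Ticam2 and 2992 for Ticam1). The transcripts used for the 3' regions have 4204 and 2992 bases, which would place Ticam2 higher per length. The annotation behind the deposited counts was not among the sources.

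**Figure D2:**
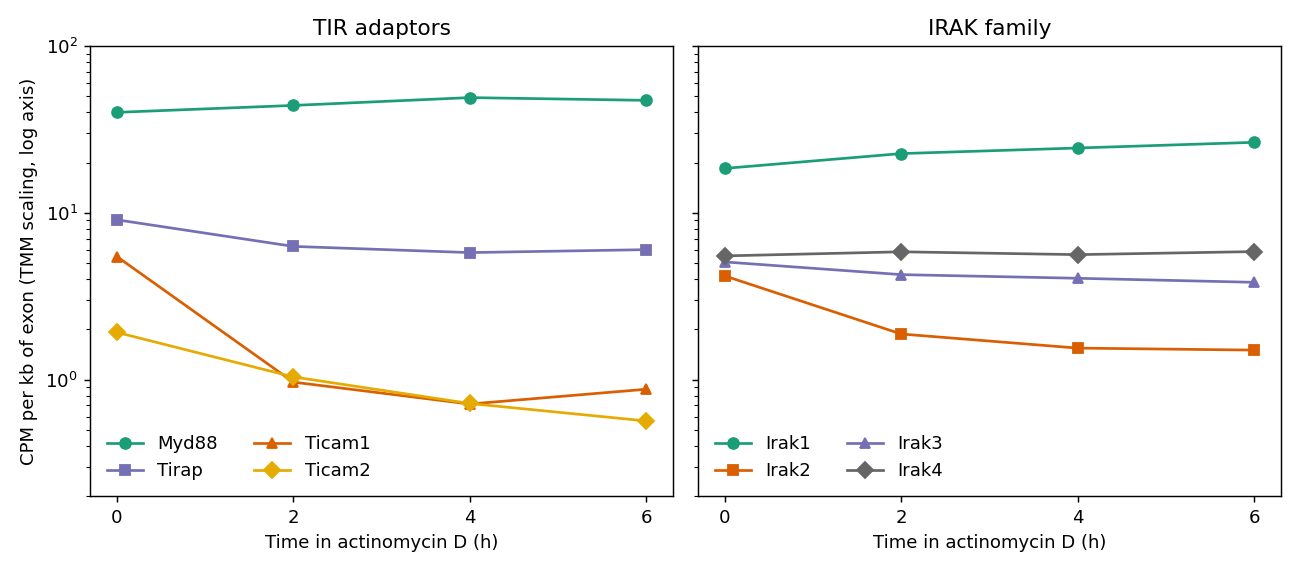
TMM-scaled CPM per kb of annotated exon (log axis) against time in actinomycin D in h for each member, 1 library per point. Before treatment the order ran from Myd88 at 40.0 to Ticam2 at 1.92, and at 4 h Ticam1 and Ticam2 stood at 0.714 and 0.719.

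Among the IRAKs, Irak2 had the least mRNA left at every treated time. The gene spans 113638467 to 113695026 of chromosome 6 (plus strand), and its TATTTAT pair is printed above. Scaled CPM were 18.5, 8.28, 6.82 and 6.63 at 0, 2, 4 and 6 h, from 561, 358, 517 and 81 counts, with the largest step before 2 h (−1.15 log2, against −0.28 and −0.04 in the next steps). Irak2 stood at 44.9% of untreated at 2 h (exact binomial 95% interval 39.2 to 51.3%), 36.9% at 4 h (32.7 to 41.7%) and 35.9% at 6 h (28.1 to 45.4%). The upward bend passed (edgeR adjusted p = 0.00939) and the slope of −0.25 ± 0.06 log2 per h lay just outside the threshold (adjusted p = 0.0537). The slope passed when the 2 h or the 6 h library was left out (adjusted p = 0.0246 and 0.0328) and with DESeq2 (0.0166), while the bend missed the threshold with DESeq2 (0.0998) and with total counts (0.142).

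Irak3, the inhibitory member, was mildly lower after shut-off with TMM. It spans 120141648 to 120202130 of chromosome 10 (minus strand). Scaled CPM were 18.6, 15.7, 14.9 and 14.1 at 0, 2, 4 and 6 h, each lower than the one before. At 2 h it stood at 84.0% (exact binomial 95% interval 75.0 to 94.0%) and at 6 h at 75.5% (63.3 to 89.7%). Neither the slope of −0.07 ± 0.03 log2 per h (quasi-likelihood test in edgeR, adjusted p = 0.112) nor the bend (adjusted p = 0.488) passed, and the joint test placed it lower (adjusted p = 0.0339, and 0.352 with DESeq2). With total counts Irak3 stood at 111% at 2 h and 101% at 4 h and the joint call was lost (edgeR adjusted p = 0.224), while with the deposited divisors it stood at 52.7% at 6 h and the slope passed (0.0305).

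With TMM, Irak4 and Irak1 were at or above their untreated level at 2, 4 and 6 h. Irak4, at 94543643 to 94581815 of chromosome 15 (plus strand), had scaled CPM of 27.7, 29.3, 28.2 and 29.4 at 0, 2, 4 and 6 h. Its intervals at 2, 4 and 6 h all included 100% (at 6 h 93.5 to 120%), and no edgeR test passed with TMM (slope 0.0098 ± 0.02 log2 per h, adjusted p = 0.701). The joint edgeR test placed Irak4 lower with the deposited divisors (adjusted p = 0.00547) and ribosomal protein scaling (0.0174), and with total counts a downward bend passed (0.0465). Irak1, at 74013914 to 74023918 of chromosome X (minus strand), had scaled CPM of 87.0, 107, 115 and 125, higher at each later time. It was the 1 member that rose on the straight line (slope 0.08 ± 0.02 log2 per h, edgeR adjusted p = 0.0348), and 8.03% of all tested genes rose. The slope of Irak1 missed the test without the untreated library (adjusted p = 0.0555) or the 4 h library (0.127). With the deposited divisors it was −0.0036 (adjusted p = 0.801), and it also missed the test when scaled by total counts (0.465) or by ribosomal protein genes (0.131).

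Upward bends passed for 3 of 8 members, Ticam1, Irak2 and Tirap, and for 18.0% of all tested genes. Downward bends passed for 0 members with edgeR and 0 with DESeq2 (1 and 0 at an unadjusted p under 0.05), against 10.7% of all tested genes with edgeR and 1.19% with DESeq2. The joint test of line and curve placed 5 of 8 lower (Ticam1, Ticam2, Irak2, Tirap and Irak3) and 2 higher (Irak1 and Myd88), against 36.2% lower and 31.6% higher among all tested genes. The members' median change from untreated was −0.39, −0.49 and −0.50 log2 at 2, 4 and 6 h, while the median over all tested genes was 0.010 at 2 h, 0.016 at 4 h and 0.0075 at 6 h. With the deposited divisors 5 of 8 members fell on the straight line (Irak2, Irak3, Myd88, Ticam2 and Tirap) and the joint test placed 7 lower, against 45.8% and 71.4% of all tested genes. By the level left at 6 h the order from least to most was Ticam1, Ticam2, Irak2, Tirap, Irak3, Irak4, Myd88, Irak1. In that order the counting intervals overlapped between Ticam1 and Ticam2, Ticam2 and Irak2, Tirap and Irak3, and Irak4 and Myd88. They did not overlap between Irak2 and Tirap, Irak3 and Irak4, or Myd88 and Irak1.

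**Figure D3:**
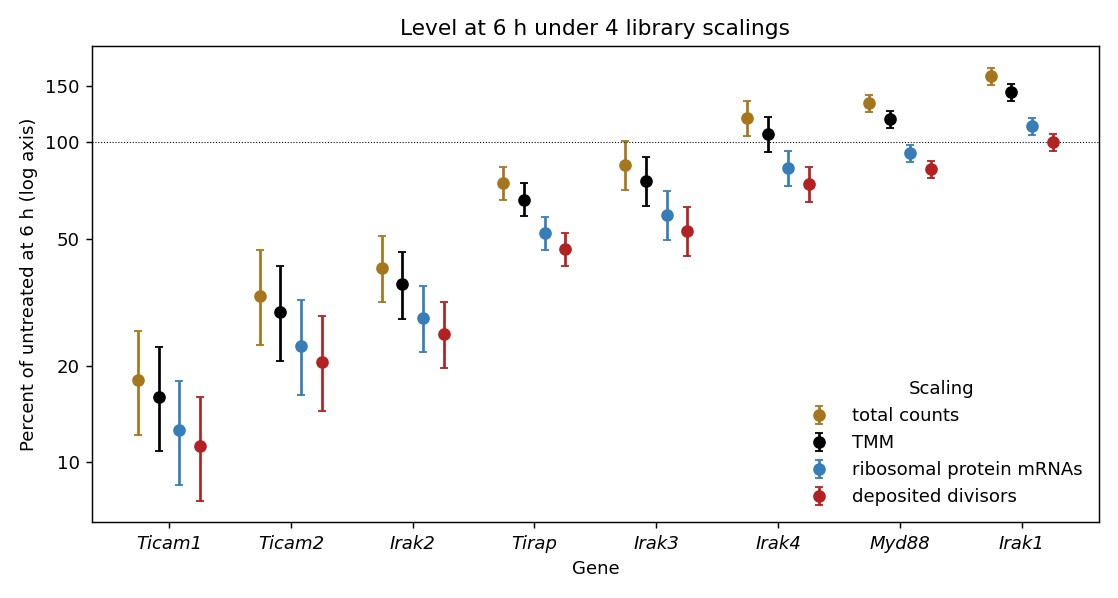
Percent of untreated at 6 h (log axis) for each member under 4 scalings of the libraries, with exact binomial 95% intervals for counting error. Irak1 stood at 143% with TMM and 100.0% with the deposited divisors, and Ticam1 at 16.0% and 11.2%.

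Ratios of counts within a library need no scaling, and they show the shift between members directly. There were 6.30 Myd88 counts for each Ticam1 count in the untreated library (exact binomial 95% interval 5.73 to 6.94), 39.2 at 2 h (32.8 to 47.2), 59.1 at 4 h (50.6 to 69.5) and 46.4 at 6 h (32.7 to 68.1). The 3 treated libraries were all above the untreated one, with intervals that did not reach it. There were 4.72 Irak1 counts for each Irak2 count before treatment (4.30 to 5.18) and 18.8 at 6 h (15.0 to 23.8). Irak1 against the inhibitory Irak3 went from 4.67 (4.26 to 5.12) to 8.85 (7.56 to 10.4). Tirap against Ticam2, the membrane sorting adaptors of the Myd88 and Ticam1 arms, went from 4.02 (3.57 to 4.55) to 9.05 (6.52 to 12.9). Myd88 against Irak1 moved less, from 1.18 (1.12 to 1.25) to 0.975 (0.907 to 1.05), though these intervals did not overlap either.

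**Figure D4:**
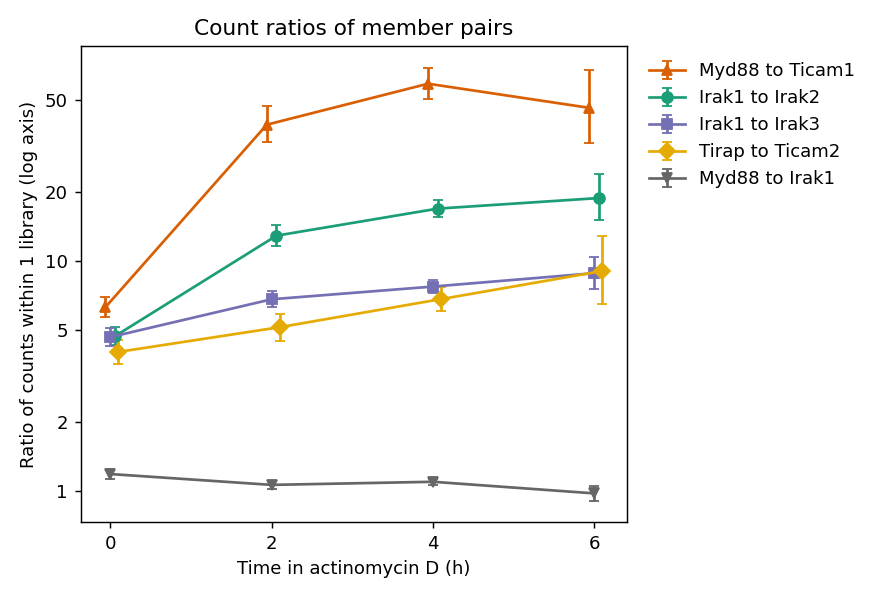
Ratio of raw counts of member pairs within each library (log axis) against time in actinomycin D in h, with exact binomial 95% intervals. Myd88 to Ticam1 went from 6.30 to 46.4 and Irak1 to Irak2 from 4.72 to 18.8 by 6 h, while Myd88 to Irak1 went from 1.18 to 0.975.

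Within the IRAK family, Irak1 made up 55.5% of the summed level per length in the untreated library and 70.3% at 6 h. Irak2 went from 12.6% to 3.99%, Irak3 from 15.3% to 10.2%, and Irak4 from 16.6% to 15.6%. Per kb of merged exons, Irak4, Irak3 and Irak2 had started close together, at 5.52, 5.07 and 4.18 scaled CPM, and stood at 5.85, 3.83 and 1.50 at 6 h. Their merged exons had 5021, 3676 and 4412 bases, against 2831, 3097 and 3196 in the transcripts used for the 3' regions. The closeness at the start and the family shares therefore depend on the length used, while the course of each gene does not.

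The authors' deposited table gives half-lives of 1.04 h for Ticam1, 1.91 h for Irak2, 2.03 h for Ticam2, 3.28 h for Tirap, 4.73 h for Irak3, 9.24 h for Irak4, 20.5 h for Myd88 and 93.2 h for Irak1. Of 9848 tested genes with a half-life above 0 in the authors' deposited table, whose median was 7.43 h, 0.863% had a shorter one than Ticam1 and 96.9% a shorter one than Irak1. All 14957 half-lives in that table were recovered within 1% by a line through the untreated value, fitted to the log of the normalized values at 0, 2 and 4 h, so the 6 h library did not enter them. With the 6 h library added to the same fit, 200 of them were recovered within 1%. For the members that addition gave 1.47 h for Ticam1, 2.49 h for Irak2, 2.38 h for Ticam2, 4.39 h for Tirap, 5.73 h for Irak3, 11.8 h for Irak4, 21.1 h for Myd88 and 265 h for Irak1. Ticam2 then had a shorter value than Irak2, the reverse of their order without 6 h. The same fit over 0, 2 and 4 h also moved with the scaling. With TMM it gave 5.45 h for Tirap and 11.1 h for Irak3 and no loss for Myd88, Irak4 and Irak1, and with ribosomal protein scaling it gave 53.7 h for Myd88 and no loss for Irak1. From 0 to 2 h alone, with the deposited normalized values, the half-lives were 0.719 h for Ticam1 and 1.39 h for Irak2, and Irak1 showed no loss. For Irak1 the R2 in the authors' deposited table was 0.63, which is measured against no change from untreated. Its deposited normalized values of 2.04, 2.05 and 1.95 at 0, 2 and 4 h left little loss to fit.

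Genes with the most similar courses were found by the distance between log2 changes at 2, 4 and 6 h, over 4 libraries and 7718 candidate genes. Among those near Ticam1 was Klhl25 (15.6% of untreated at 2 h and 15.0% at 6 h). For Irak2 the nearest were Bcl2l11, a pro-apoptotic BCL2 relative (45.0%, 37.5% and 37.2% at 2, 4 and 6 h), and Skil, and for Ticam2 they were the stress-response transcription factor Nfe2l2 (55.2%, 37.6% and 29.2%) and Mbp. The distance was 0.21 log2 from Ticam1 to Klhl25, against 0.01 for the genes nearest to Myd88 and to Irak1 (Rab3d and Dld). Gramd4 and Ifnar2 lay nearest to Tirap and Xpnpep3 and Gcc2 to Irak4, and Kdm4a lay near Irak3. The other near genes were Rmnd5a for Myd88 and Dync1i2 for Irak1.

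The other genes of the pathway were taken from 4 lists with 81 names, of which 65 passed the abundance filter. Of these 13 fell (20%) and 5 rose (7.69%) on the straight line, close to the 16.8% and 8.03% of all tested genes. Without the 4 h library 4 fell and 0 rose, against 2.15% and 0.111% of all tested genes. Without the 6 h library 20 fell (20.7% of all), and without the 2 h library 2 rose (4.05% of all). Rises are relative to the typical gene under TMM. With the deposited divisors 36 of the 65 fell on the straight line, against 45.8% of all tested genes. With TMM the joint test placed 32 of the 65 lower and 16 higher, against 36.2% and 31.6% of all tested genes. The text names of each list the most abundant genes and the steepest fall and rise. Tlr6, Tlr7, Tlr13, Traf6, Tbk1, Ikbkg, Ikbkb, Pik3ap1, Tnfaip3, Dok1 and Peli1 were added with their values in view.

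Receptors and their helpers gave 4 falls and 1 rise among 14, against 16.8% and 8.03% of all tested genes. Line and curve tested jointly placed 8 of the 14 lower and 3 higher, against 36.2% and 31.6% of all tested genes. Tlr2, the receptor for bacterial lipoproteins, stood at 35.1% of untreated at 2 h and 15.5% at 4 h (slope −0.52, edgeR adjusted p = 0.0187), and Tlr6, Tlr7 and Tlr13 also fell. Ly86, the partner of Cd180, rose to 138% (adjusted p = 0.0376). Cd14, the co-receptor for lipopolysaccharide, stood at 83.3% (adjusted p = 0.238), and the chaperone Hsp90b1 and the trafficking factor Unc93b1 at 131% and 114% (adjusted p = 0.078 and 0.126). The joint edgeR test placed Cd14 lower (adjusted p = 0.00017) and Hsp90b1 and Unc93b1 higher (0.000186 and 0.00576). Of 4 measured interleukin-1 family receptors 0 fell and 1 rose on the straight line with edgeR and with DESeq2. At an unadjusted p under 0.05 likewise 0 fell. The riser was Il1rl1, the interleukin-33 receptor, at 160% (edgeR adjusted p = 0.0222), while Il18rap and Il1rap stood at 93.5% and 75.8% (adjusted p = 0.61 and 0.152). The joint edgeR test placed Il18rap and Il1rap lower (adjusted p = 0.00275 and 0.0347) and Il1rl1 higher (5.7e-05). Of all tested genes it placed 36.2% lower and 31.6% higher.

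Downstream carriers gave 7 falls and 2 rises among 24, against 16.8% and 8.03% of all tested genes. Line and curve tested jointly placed 14 of the 24 lower and 7 higher, against 36.2% and 31.6% of all tested genes. Traf6, the ligase next after the IRAKs, fell, with 33.9% left at 6 h (edgeR slope −0.27, adjusted p = 0.0229). The kinase Ripk1, which binds Ticam1, fell to 26.8% (−0.32, adjusted p = 0.0148), and Tbk1, the kinase of the Ticam1 arm, to 47.5% (adjusted p = 0.0192). Of the 3 subunits of the kinase complex that frees NF-kB, Chuk and Ikbkg rose, to 155% and 137% (adjusted p = 0.0327 and 0.0394), and Ikbkb stood at 119% (adjusted p = 0.0923). Map3k7, which encodes the kinase TAK1, and its partner Tab2 stood at 141% and 114% (adjusted p = 0.0631 and 0.102), and the transcription factor Irf5 fell to 64.2% (adjusted p = 0.0264). The joint edgeR test placed Ikbkb, Map3k7 and Tab2 higher (adjusted p = 0.00647, 7.85e-05 and 0.0173). Binding partners and brakes gave 2 falls, of the phosphatase Ptpn6 (70.6%, adjusted p = 0.0296) and the adaptor Pik3ap1 (73.2%, adjusted p = 0.048), and 1 rise, of Tmed7, among 23. Cbl and Inpp5d, which are abundant brakes, stood at 106% and 98.7% (adjusted p = 0.452 and 0.882). Larger losses in this list missed the slope test. Among them were Tnfaip3, Dok1 and Peli1 at 18.0%, 35.4% and 46.5% (edgeR adjusted p = 0.11, 0.0579 and 0.0573). The joint test placed these genes lower (edgeR adjusted p = 2.02e-05, 5.7e-06 and 2.75e-05). Of the 23 it placed 8 lower and 5 higher, against 36.2% and 31.6% of all tested genes.

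**Figure D5:**
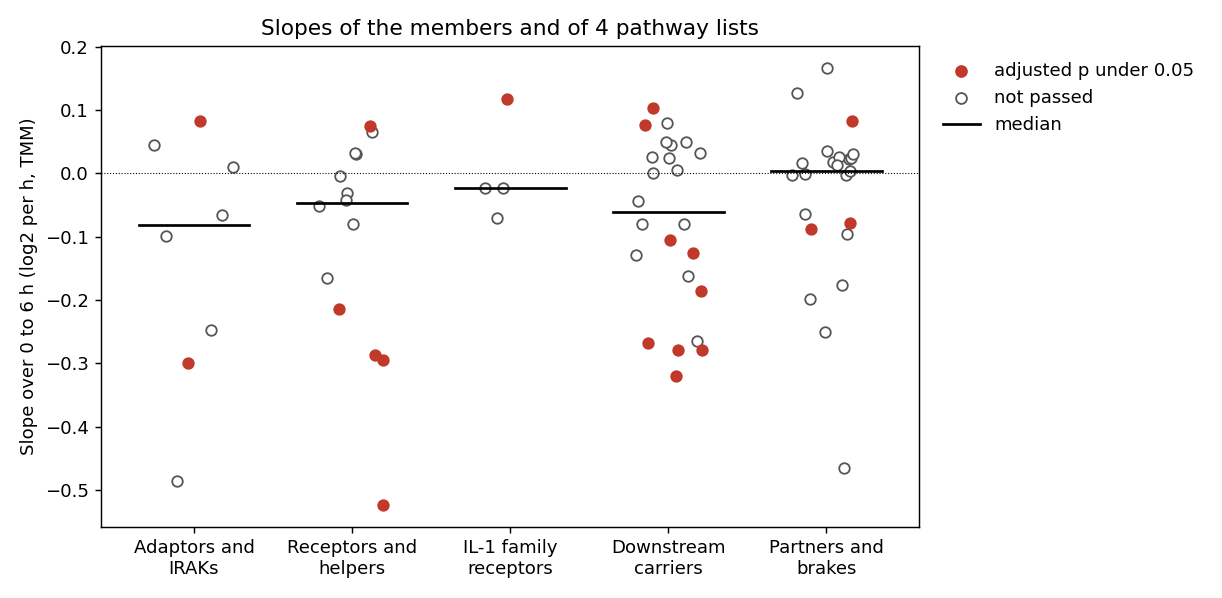
Slope of each gene over 0 to 6 h (log2 per h, TMM scaling) for the 8 members and the 4 pathway lists; filled points passed the edgeR test at an adjusted p under 0.05 and bars are medians. The members ran from −0.49 for Ticam1, which did not pass, to 0.08 for Irak1, which did.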

How the data were processed

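Raw counts per gene of 41324 genes, per the file headers, were used as deposited. The submitters' processing notes name the build mm10 and the tools STAR (2.5.3a), Subread (1.6.3) and featureCounts. The normalized signal in the deposited table is each library's count divided by 1 number (1300, 2250, 4476 and 748 at 0, 2, 4 and 6 h), as recomputation showed. The deposited half-life and R2 columns were taken as a score given by the authors. Spike-ins are not named in the labels.

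Slopes, bends (quadratic time term) and both jointly were tested with edgeR 4.0.16 in R 4.3.3 (quasi-likelihood, TMM, mean CPM 1 or more, Benjamini-Hochberg over 10837 genes, threshold 0.05), with 2 residual degrees of freedom for the slope and 1 otherwise. Changes are differences of log2 CPM (prior count 0.5). Each SE is the size of the slope divided by the square root of its quasi-likelihood F statistic. Intervals were exact binomial 95% intervals from the pair of counts. Alternatives were other scalings, filters, DESeq2 1.42.0, a prior count of 2 and leaving out each library. Named genes were all members, the 2 nearest courses of each (distance in log2 change, candidates with mean CPM 10 or more; some are not reported here), and of each list the 3 most abundant and the steepest fall and rise past the test. Members and lists were chosen with earlier results of these data known. Simulated data had a dispersion of 0.02 for every gene, with 200 genes changed and all others level. There the slope test recovered 165 of 200 falls of 0.25 log2 per h with 3 false calls. The bend test recovered 107 of 200 early drops. In the real data 16.8% of tested genes fell and 8.03% rose, so the simulated false calls give no error rate for them.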

Additional observations from a re-analysis of the deposited data

How the results depend on the processing

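Calls on members depended on scaling and on single libraries. The share of all tested genes called stands in parentheses after each count of members. By the straight line 1 of 8 fell and 1 rose. Falls numbered 3 with total counts (12.2%), 2 with total counts lacking the rRNA-like genes (19.3%), 5 with the deposited divisors (45.8%), 3 without a filter (11.9%) and 3 with DESeq2 (20%). Rises numbered 0 with total counts (1.89%), with total counts lacking the rRNA-like genes (2.92%), with ribosomal protein scaling (1.2%) and with the deposited divisors (0.664%). Leaving out 1 library gave 0 to 4 falls and 0 to 2 rises. The lowest counts, 0 falls (2.15%) and 0 rises (0.111%), came without the 4 h library. Rises also numbered 0 without the untreated library (6.87%). The highest, 4 falls (20.7%) and 2 rises (10.3%), came without the 6 h library. Upward bends, 3 with TMM, numbered 1 with total counts (6.16%) and 1 with DESeq2 (8.96%), and downward bends, 0 with TMM, numbered 3 with total counts (44.0%) and 1 without a filter (9.67%). Joint lower calls, 5 with TMM, numbered 3 with total counts (24.7%). Joint higher calls, 2 with TMM, numbered 0 with ribosomal protein (5.29%) or deposited scaling (2.37%) and 1 with DESeq2 (17%). Slopes changed sign for Myd88 (−0.014 with ribosomal protein scaling, −0.043 with the deposited divisors), Irak1 (−0.0036 with the deposited divisors) and Irak4 (−0.0053 with total counts lacking rRNA-like genes, −0.048 and −0.077 with ribosomal protein and deposited scaling, and leaving out 1 library −0.00075, without the untreated one, to 0.013). The median member change was −0.67, −0.95 and −1.02 log2 at 2, 4 and 6 h with the deposited divisors, −0.63, −0.82 and −0.85 with ribosomal protein scaling, and 0.016, −0.15 and −0.33 with total counts. At 6 h it was −0.59 with total counts lacking rRNA-like genes. Pathway falls (13) numbered 36 with the deposited divisors (45.8% of all tested genes) and 20 with DESeq2 (20%). Leaving out 1 library gave from 4 falls, without the 4 h one (2.15%), to 20, without the 6 h one (20.7%). Pathway rises (5) numbered 0 with total counts (1.89%), ribosomal protein (1.2%) and deposited scaling (0.664%), and 3 with total counts lacking rRNA-like genes (2.92%). Leaving out 1 library gave from 0 rises, without the 4 h one (0.111%), to 4, without the untreated (6.87%) or the 6 h one (10.3%). The cause of these changes in calls was not tested. Robust spread estimates, added after seeing the data, moved none of these counts by over 1.5 times. With 3 libraries bends leave no residual degree of freedom and were not refitted. No paired analysis was possible because each time has 1 library. Counts of 32 and 40 for Ticam1 and Ticam2 at 6 h limit their precision.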
